A study of Mus musculus with 6 samples.

Results

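A set of 10 genes of epithelial adhesion and of the epithelial to mesenchymal transition was followed through the RNA-seq libraries of haploid, androgenetic mouse embryonic stem cells (AG-haESCs), of round sperm and of ESC XX, embryonic stem cells with the label XX. Cdh1, Epcam, Cldn6 and Cldn7 encode adhesion proteins of epithelia, Vim encodes the mesenchymal filament protein vimentin, and Zeb1, Zeb2, Snai1, Snai2 and Twist1 encode transcription factors. The genes were chosen by name, with earlier results of these data known, and all 10 were found among the 23889 gene symbols that every table listed.

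Expression was measured in 6 mouse libraries of polyA RNA. The AG-haESC group held 1 library from each of 3 cell lines, of which A129-2 is replicate 1, AOS-14 replicate 2 and AOS-16 replicate 3. Per the labels, these lines come from an F1 hybrid of C57BL/6 and DBA/2 and were derived from blastocysts made by injecting a sperm head into an oocyte whose spindle had been removed, so that the only nuclear genome is paternal. They were plated on feeders in a medium with serum replacement and 2i, which blocks the kinases MEK and GSK3, and haploid cells in G0/G1 were sorted by their Hoechst stain. The round sperm group held 1 library of the same strain and of the cell type sperm, and its label repeats the derivation and sorting text of the AG-haESCs. The ESC XX group held 2 libraries of 2i cultured embryonic stem cells of an Oct-GFP (C57) background, grown with fetal bovine serum and LIF and collected after a feeder-free treatment, with no sort named. Nothing in the labels says that the ESC XX pair came from separate cultures, and each AG-haESC line is a line of its own, so the spread in that group is between lines. All the stem cell groups received 2i, and no group without it was compared.

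E-cadherin, the product of Cdh1, joins neighbouring cells through adherens junctions. Epcam encodes another adhesion protein of the epithelial surface, and claudins such as Cldn6 and Cldn7 form the strands of tight junctions. In the epithelial to mesenchymal transition these genes are turned down, with factors of the Snail, ZEB and Twist families as known repressors, while mesenchymal genes such as Vim are turned up. Mouse embryonic stem cells grow as compact colonies held together by E-cadherin, and fibroblasts, which serve as feeders, express Vim and several of the factors.

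Depth was estimated at 8.40 to 18.1 M (mega) fragments per library, and 11406 to 12515 genes reached an FPKM of 1, a level per unit of transcript length and of library depth. The labels were checked on genes known to mark each cell type. Pou5f1 and Nanog, pluripotency factors, stood at 797 to 1316 and 290.0 to 406 FPKM in the AG-haESC lines and at 6.78 and 0.851 FPKM in round sperm. Prm1 and Prm2, the protamines of spermatids, stood at 10837 and 6997 FPKM in round sperm and at 0.772 and 0.247 FPKM in AOS-14. They were listed at 0 in A129-2, AOS-16 and the ESC XX pair. The summed level of 8 pluripotency markers was 7530 to 8383 TPM (the same values rescaled to a common total in each library) in AG-haESCs and 7827 to 7928 TPM in ESC XX. A list of 10 spermatid markers summed to 36377 TPM in round sperm and to at most 8.38 TPM in any other library. Of cell types that round sperm could hold besides, 8 Sertoli markers summed to 12.6 TPM, 6 Leydig markers, of which 2 were listed at 0, to 3.04 TPM and 6 blood markers to 6.98 TPM.

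**Figure D1:**
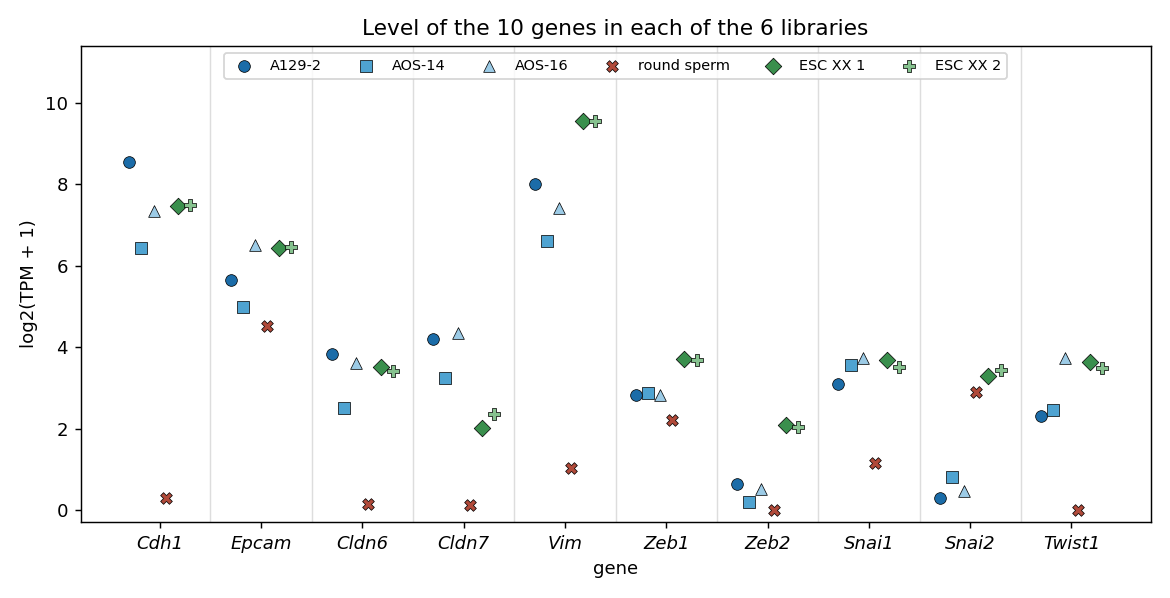
Level of each of the 10 genes in the 6 libraries, as log2(TPM + 1), with 1 point per library and no averaging. Cdh1, Cldn6, Cldn7 and Vim lie near 0 or 1 in round sperm and well above it in every stem cell library, Snai2 lies low in the AG-haESC lines alone, and Vim is highest in the ESC XX pair.

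AG-haESCs were first set against round sperm in a limma fit over all genes of their shared table. Of the 10 genes, 9 reached the minimum of 1 FPKM in at least 1 of the 4 libraries and were tested. Cdh1, Cldn6, Cldn7 and Vim were higher in AG-haESCs and Snai2 was lower, with a Benjamini-Hochberg adjusted p below 0.05 plus a difference of at least 1 on the log2(FPKM + 1) scale. Over all genes, 22.8% of the 15938 tested were called higher and 39.1% lower, so calls were common in this comparison. Against that background, 4 of the 9 members tested were higher and 1 was lower.

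Cdh1 had the highest level and the largest difference among the epithelial members. It stood at 189.0, 60.6 and 87.7 FPKM in A129-2, AOS-14 and AOS-16, against 0.283 FPKM in round sperm. All 3 lines lay far above round sperm, with a mean of 112 ± 67.7 FPKM (SD, n = 3), and the difference was 6.30 ± 0.82 (SE) on the log2(FPKM + 1) scale, with a limma adjusted p of 0.0130.

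Cldn6, a claudin known from embryonic epithelia, stood at 6.71, 3.29 and 6.18 FPKM in A129-2, AOS-14 and AOS-16 and at 0.141 FPKM in round sperm. Cldn7, a claudin of many simple epithelia, stood at 8.92, 6.04 and 10.6 FPKM in the same lines and at 0.117 FPKM in round sperm. Neither gene's lines overlapped round sperm, and the differences were 2.44 ± 0.46 (limma adjusted p = 0.0276) for Cldn6 and 3.06 ± 0.37 (limma adjusted p = 0.0112) for Cldn7. Both calls were lost without A129-2 (adjusted p = 0.0782 and 0.0525), and without AOS-16 that of Cldn6 (adjusted p = 0.0998) and that of Cdh1 (adjusted p = 0.0636) were lost while their differences stayed at 2.33 and 6.40.

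Epcam was the exception in the group. It stood at 25.2, 21.7 and 49.5 FPKM in A129-2, AOS-14 and AOS-16, and at 27.3 FPKM in round sperm, inside the range of the lines. The difference of 0.13 ± 0.61 was smaller than its error (limma adjusted p = 0.855), and it turned to -0.22 without AOS-16 (adjusted p = 0.413). In TPM round sperm, at 22.0, lay below all 3 lines, at 49.4, 30.6 and 90.6, so the overlap depends on the scale. Round sperm thus held Epcam RNA at 27.3 FPKM with Cdh1, Cldn6 and Cldn7 all under 0.3 FPKM.

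The promoters of the members were read for the E-box CACCTG, the sequence that Snail and ZEB factors are known to bind. Of the 3 epithelial members called higher than in round sperm, Cldn6 and Cldn7 had a promoter window and Cdh1 had none. The windows are those of RefSeq on GRCm38.p6, from 250 bases before a transcript's start to 50 after it, and 7 of the 10 members had at least 1 window, all but Cdh1, Zeb1 and Snai2. The 250 bases before the start are printed below for the 4 genes with a match, 5′ to 3′ on the gene's strand, with CACCTG or its reverse complement CAGGTG in capitals. Of the windows of the other members, that of Vim, the 4 of Zeb2, that of Twist1 and the first of Cldn7 held no match.
Epcam, chr17:87635729-87635978, plus strand: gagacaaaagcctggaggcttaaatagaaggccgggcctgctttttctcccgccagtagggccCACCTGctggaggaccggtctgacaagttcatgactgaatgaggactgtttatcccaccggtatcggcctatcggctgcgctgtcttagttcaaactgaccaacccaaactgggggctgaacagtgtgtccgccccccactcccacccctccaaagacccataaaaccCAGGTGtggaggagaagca
Cldn6, chr17:23679115-23679364, plus strand: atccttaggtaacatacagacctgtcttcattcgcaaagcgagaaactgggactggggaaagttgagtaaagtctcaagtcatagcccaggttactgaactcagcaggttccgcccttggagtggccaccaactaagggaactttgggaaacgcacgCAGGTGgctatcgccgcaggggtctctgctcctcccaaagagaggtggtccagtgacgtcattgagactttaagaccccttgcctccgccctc
Cldn7, chr11:69965171-69965420, plus strand: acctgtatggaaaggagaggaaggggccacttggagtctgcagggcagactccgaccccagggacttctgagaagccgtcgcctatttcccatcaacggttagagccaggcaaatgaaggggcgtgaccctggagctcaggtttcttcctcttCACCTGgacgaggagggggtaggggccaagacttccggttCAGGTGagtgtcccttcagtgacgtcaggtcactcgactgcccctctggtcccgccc
Snai1, chr2:167537945-167538194, plus strand: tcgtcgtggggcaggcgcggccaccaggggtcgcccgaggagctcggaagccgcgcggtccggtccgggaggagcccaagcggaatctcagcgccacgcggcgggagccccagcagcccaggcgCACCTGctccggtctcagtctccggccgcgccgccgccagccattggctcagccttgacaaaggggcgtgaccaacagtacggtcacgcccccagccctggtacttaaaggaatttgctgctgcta
Counted from the start, with -1 the base just before it, the first base of the match lay at -187 and -19 in Epcam, at -97 and -57 in Cldn7 and at -126 in Snai1. Cldn6 had a match at -93 and another at 41, beyond the printed bases. The motif was found in 4 of the 7 members with a window and in 22.6% of the 27025 genes of the RefSeq table. Counted by window, it was in 4 of 11 windows of the members (36.4%) and in 20.3% of all 32544. It was the only motif searched, it is 1 form of the general E-box CANNTG, and a match describes the letters and no binding. Of the epithelial genes with a match, Cldn6 and Cldn7 were called higher in AG-haESCs than in round sperm and Epcam was not. Whether the motif has a part in these levels was not tested.

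Vim stood at 131.6, 68.7 and 92.4 FPKM in A129-2, AOS-14 and AOS-16, and at 1.29 FPKM in round sperm. All lines lay above round sperm, by 5.38 ± 0.46 on the log2 scale (limma adjusted p = 0.00578), and the call held without any single line. Vim thus rose beside Cdh1, Cldn6 and Cldn7, although vimentin is classed with the mesenchymal genes. A list of 12 markers of feeder fibroblasts, which also express Vim, summed to 39.7, 148 and 224 TPM in A129-2, AOS-14 and AOS-16 and to 27.2 TPM in round sperm. None of the 12 was called higher (6 without A129-2) and 1 was called lower, and Vim was highest in A129-2, where their sum was lowest. In bulk RNA, a change in the number of cells of a type and a change in RNA per cell cannot be told apart.

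Snai2, which encodes Slug, was the transition factor that fell. It stood at 0.119, 0.531 and 0.204 FPKM in A129-2, AOS-14 and AOS-16, against 8.01 FPKM in round sperm. At the estimated depth these are about 2 fragments in A129-2 (95% Poisson interval 0.242 to 7.22), 19 in AOS-14, 4 in AOS-16 and 161 in round sperm (137 to 188), intervals that cover counting error only. The lines did not overlap round sperm, and the difference was -2.82 ± 0.23 on the log2(FPKM + 1) scale (limma adjusted p = 0.00536). Snai2 was called lower in every setting in which it was tested.

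Snai1, which encodes Snail, went the other way without passing the test. Its levels were 3.86, 7.60 and 6.76 FPKM in A129-2, AOS-14 and AOS-16 and 1.52 FPKM in round sperm, so that every line lay above round sperm. The difference was 1.44 ± 0.44 (limma adjusted p = 0.0729). The call was gained without A129-2 (adjusted p = 0.0204), with the filter at 2 libraries (adjusted p = 0.0295) and under each rescaling of the libraries, with 2.31 (adjusted p = 0.0191) at equal totals.

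Twist1, a basic helix-loop-helix factor of mesoderm and mesenchyme, stood at 2.02, 3.15 and 6.68 FPKM in A129-2, AOS-14 and AOS-16 and was listed at 0 in round sperm. Its difference did not pass the test (limma adjusted p = 0.0747), and no fold is given against a value of 0. It was called higher with a pseudocount of 0.1, with the filter at 2 libraries and without genes under 200 nt. An entry of 0 can also be a failed estimate in these tables, since the elongation factor Eef1a1 was listed at 0 in all 3 lines.

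Zeb1 stood at 3.11, 4.47 and 3.36 FPKM in A129-2, AOS-14 and AOS-16 and at 4.55 FPKM in round sperm, just above the highest line. The difference of -0.27 ± 0.23 did not pass (limma adjusted p = 0.374), and its sign turned at equal library totals (0.62, adjusted p = 0.0448), without genes under 200 nt (0.61) and under quantile normalization (0.12). Exons of Gm10125 overlap Zeb1 on the opposite strand, and Gm10125 stood at 6.32 FPKM in round sperm and at 0.0701 FPKM or less in the lines, so Zeb1 reads there cannot be told apart unless strand was used. Zeb2 was below 1 FPKM in all 4 libraries of the table, at 0.288, 0.106 and 0.236 in A129-2, AOS-14 and AOS-16 and 0.0105 in round sperm, and was not tested.

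The median difference of all genes tested was -0.49, and 36.8% of calls were higher. Scaled to equal totals, the libraries gave a median of 0.40, with 52.1% of calls higher. Taken relative to the median of all genes, the differences were 6.80 for Cdh1, 2.93 for Cldn6, 3.55 for Cldn7, 5.87 for Vim and -2.33 for Snai2. The p-values rest on the spread between the 3 lines only, with 2 residual degrees of freedom per gene. In limma the spread of each gene is moderated towards a trend over all genes. The p-values assume that the single round sperm library varies as the lines do.

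**Figure D2:**
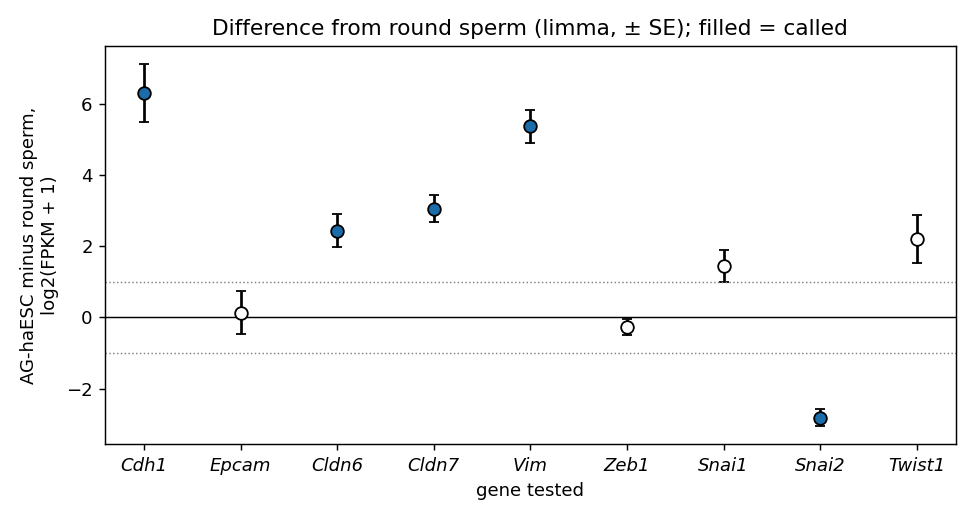
Difference of AG-haESCs from round sperm on the log2(FPKM + 1) scale for the 9 genes tested, with the limma SE over 3 lines and 1 round sperm library. Filled points were called, dotted lines mark 1 and -1. Cdh1 and Vim lie highest, at 6.30 and 5.38, Cldn6 and Cldn7 follow, and Snai2 alone lies below -1.

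Genes that act with the members were read from lists of the same pathways. Over all genes tested 22.8% were called higher and 39.1% lower, and the count of each list is to be read beside these shares. Of 32 genes of epithelial junctions and polarity, 12 were higher in AG-haESCs than in round sperm and 2 were lower, with a median difference of 1.19 against -0.49 over all genes. The largest differences among the higher genes were 5.87 ± 0.27 (SE) for the polarity gene Llgl2, 5.07 ± 0.35 for Ctnna1, the catenin that ties E-cadherin to actin, and 4.82 ± 0.72 for the membrane protease gene St14. The desmosomal plakophilin Pkp1 fell by 2.71 and the tight junction gene Marveld3 fell by 1.15. The higher count was 7 without AOS-16 and 15 to 18 under the 3 other scalings. As a scale for these counts, 8 of 10 housekeeping genes were higher too (4 without AOS-16), with a median of 1.98.

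Of 18 other claudins 5 were tested, with a median of -0.82. Cldn4 was higher, with 58.7 ± 14.4 FPKM (SD, n = 3) in the lines against 0.171 FPKM in round sperm, and so was Cldn12, while Cldn3 was lower, with 6.02 ± 0.798 FPKM against 27.3. The lower call of Cldn3 was lost at equal totals and without genes under 200 nt. Round sperm thus held RNA of Epcam and Cldn3 and little of Cldn4, Cldn6 or Cldn7. Of 8 further cadherins listed 4 were tested, none was higher, and Cdh2, Cdh11 and Cdh13 were lower, with a median of -2.25. The call of Cdh11 was lost in 7 of 9 alternatives, and that of Cdh2 in 1, without AOS-14 (adjusted p = 0.0731). Cdh2, which encodes N-cadherin, stood at 40.1 FPKM in round sperm and at 0.880, 1.14 and 2.78 FPKM in A129-2, AOS-14 and AOS-16, a difference of -4.05 ± 0.53 (limma adjusted p = 0.0134). The pair of E-cadherin and N-cadherin genes thus differed in opposite directions between these cell types.

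Of 10 epithelial regulators, Elf3 and Grhl3, with differences of 4.45 and 4.03, were higher, and the median was 0.68. Ovol1, Ovol2 and Grhl1 were lower, and the zinc finger genes Ovol1 and Ovol2 stood at 58.4 and 148 FPKM in round sperm. With 2 of 10 higher and 3 lower, the list lay near the shares of all genes tested, 22.8% and 39.1%. The higher count of this list was 4 without A129-2 and 0 without AOS-14, and at equal totals 4 were higher and 1 was lower.

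Of 16 mesenchymal effectors tested, 6 were higher and 2 lower, with a median of 1.23. Over all genes tested the shares were 22.8% and 39.1%, as for the other lists here. The matrix genes Sparc and Fn1 and the integrin gene Itga5, which binds fibronectin, led with 5.71, 5.46 and 4.20, and the lower ones were the cadherins Cdh2 and Cdh11. The lower count was 1 with any single line left out, since Cdh11 lost its call without A129-2 or AOS-16 and Cdh2 without AOS-14. Of 9 other transition regulators tested, the E-protein gene Tcf3 (5.29) and Sox4 were higher and Runx2 (-1.77), Snai3 (-1.47) and Fosl1 (-1.06) were lower. The higher count there was 1 without A129-2 and 1 without AOS-14, and the lower count was 1 at equal totals. Of 9 tested genes of the TGF-beta pathway, a known inducer of the transition, 4 were higher, led by Smad7 (3.92), Smad3 (2.65) and Skil (2.37), and the ligand gene Tgfb3 (-1.66) was lower, with a median of 1.62.

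AG-haESCs were next set beside ESC XX, the other pluripotent group. Each ESC XX library has a separate table with its own scaling, so levels were put on a common total as TPM and no test was run. A gene was counted as higher or lower where the means of log2(TPM + 1), less the median difference of all genes, differed by at least 1 and no AG-haESC library overlapped either ESC XX library. By this rule 5.66% of the 14251 genes kept were higher and 7.93% were lower. Among the 10 members Cldn7 was higher, Vim, Zeb2 and Snai2 were lower, and the other 6 were within the bound.

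Cdh1 stood at 371, 85.7 and 160.5 TPM in A129-2, AOS-14 and AOS-16 and at 177 and 178 TPM in ESC XX. The lines lay on either side of ESC XX, and the mean difference was 0.06 ± 1.05 (SD over lines, log2). Epcam stood at 49.4, 30.6 and 90.6 TPM in the lines and at 86.3 and 87.7 TPM in ESC XX, with AOS-16 just above the pair and the other lines below. Cldn6 stood at 13.2, 4.65 and 11.3 TPM in the lines and at 10.4 and 9.74 TPM in ESC XX, again with lines on either side. The spread between lines was larger than the mean difference for all 3 genes, at -0.64 ± 0.77 for Epcam and -0.05 ± 0.71 for Cldn6.

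Cldn7 was the epithelial member that passed the bounds. It stood at 17.5, 8.54 and 19.3 TPM in A129-2, AOS-14 and AOS-16, against 3.06 and 4.15 TPM in ESC XX. Every line lay above both ESC XX libraries, by 1.16 to 2.25 over the mean of the pair on the log2 scale (mean 1.85 ± 0.60, SD), and the ratio of the mean levels was 4.19. Cldn7 was counted as higher under every alternative tried.

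Vim had the highest level of the 10 genes in ESC XX, at 755 and 747 TPM, and stood at 258, 97.1 and 169 TPM in A129-2, AOS-14 and AOS-16. Every line lay below both ESC XX libraries, with a mean difference of -2.10 ± 0.70, and the mean level was 4.30 times as high in ESC XX. Zeb2, a ZEB factor, stood at 0.566, 0.150 and 0.432 TPM in the lines and at 3.24 and 3.11 TPM in ESC XX, a difference of -1.50 ± 0.23 and a ratio of 8.30. The antisense gene Zeb2os overlaps Zeb2 and was at 0.233 and 0.236 FPKM in ESC XX and at most 0.0967 FPKM in the lines.

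Snai2 stood at 0.233, 0.750 and 0.373 TPM in the lines and at 8.80 and 9.84 TPM in ESC XX. The difference of -2.74 ± 0.26 was the largest of the 10 on this scale, and the mean level was 20.6 times as high in ESC XX, a ratio that rests on about 2, 19 and 4 fragments in the lines. Zeb1 stood at 6.10, 6.32 and 6.15 TPM in the lines, closer together than in FPKM, and at 12.1 and 11.8 TPM in ESC XX. All lines lay below ESC XX, but the difference of -0.75 ± 0.02 was under the bound of 1, and Zeb1 was counted as lower where the bound was 1.5-fold.

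Snai1 stood at 7.59, 10.7 and 12.4 TPM in the lines and at 11.9 and 10.4 TPM in ESC XX, with a difference of -0.03 ± 0.33. Twist1 stood at 3.97, 4.45 and 12.2 TPM in the lines and at 11.5 and 10.1 TPM in ESC XX. AOS-16 lay above the ESC XX pair and the other lines below, so that Twist1 overlapped with a difference of -0.63 ± 0.78, and it was counted as lower without AOS-16. The transition factors thus did not move as a block, with Snai2 and Zeb2 lower and Snai1 and Twist1 overlapping.

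**Figure D3:**
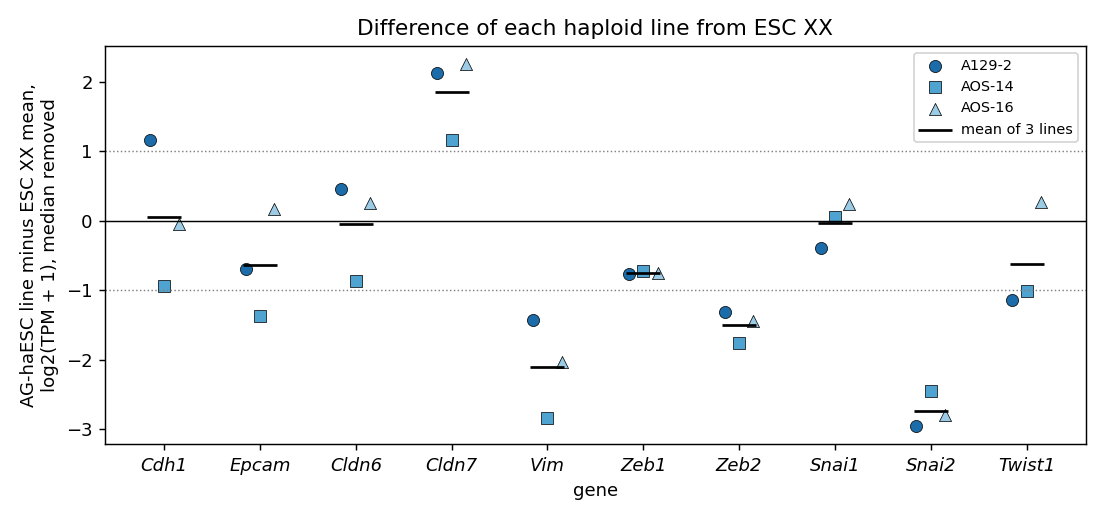
Difference of each AG-haESC line from the mean of the ESC XX pair, in log2(TPM + 1) with the median of all genes removed, with the mean of the 3 lines as a bar and dotted lines at 1 and -1. All lines of Cldn7 lie above 1 and all lines of Vim, Zeb2 and Snai2 lie below -1, while the lines of Cdh1 spread from 1.16 to -0.94.

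Feeder fibroblast markers moved with the lower members. The 12 markers summed to 39.7 to 224 TPM in the lines and to 1786 and 1785 TPM in ESC XX, and 11 of 12 were lower in AG-haESCs by the same rule, with a median of -3.42. None of the 12 was at 0 in all lines, and 9 of 12 reached 1 TPM in A129-2 and 12 of 12 in AOS-14 and AOS-16. Of 6 peritubular myoid and endothelial markers kept, 3 were lower and none was higher. Acta2, the smooth muscle actin gene, made up most of that list's sum in ESC XX, at 585 and 588 TPM, while the endothelial marker Pecam1 overlapped, at 91.7, 53.4 and 71.0 TPM in A129-2, AOS-14 and AOS-16 and 59.8 and 59.5 TPM in ESC XX. Of 7 primitive endoderm markers kept, 2 were lower and none was higher. The part of these cells in the levels of Vim, Zeb2 and Snai2 was not tested. Of 6 trophoblast markers kept, 2 were higher and 1 was lower. Among the lines, Twist1 and Snai1 had the order of the fibroblast sum, lowest in A129-2 and highest in AOS-16. The lower members had other orders, with Vim and Zeb2 highest in A129-2 and Snai2 in AOS-14. Zeb2 and Snai2 were below 1 TPM in every line, so their order is imprecise. What any of these orders owes to feeder cells was not tested.

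**Figure D4:**
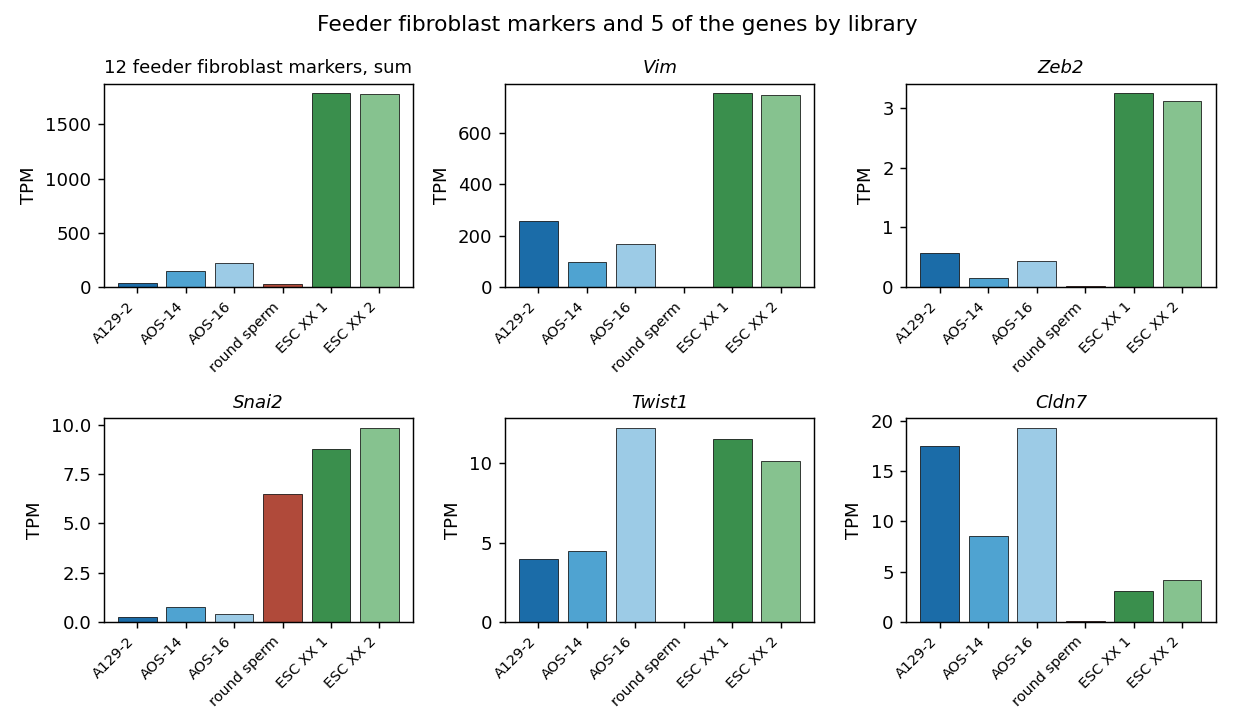
Summed level of 12 feeder fibroblast markers and level of 5 of the genes in each library, in TPM, with 1 bar per library and each axis from 0. The marker sum, Vim, Zeb2 and Snai2 are highest in the ESC XX pair, Twist1 in AOS-16 is level with that pair, and Cldn7 is highest in the AG-haESC lines.

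The pathway lists were counted by the same rule, by which 5.66% of all genes kept were higher and 7.93% lower. Of 17 mesenchymal effectors kept, 15 were lower in AG-haESCs than in ESC XX and none was higher, with a median of -3.64 where that of all genes is 0. The feeder fibroblast markers had a median of -3.42, and the part of feeder cells in this list was not tested. The calcium-binding protein gene S100a4 (-6.75) and the smooth muscle genes Acta2 (-6.16) and Tagln (-4.99) had the largest differences. Of 12 other transition regulators, Prrx1, Twist2 (-3.02) and Hmga2 (-1.61) were among 5 lower and Gsc (1.17) was higher, with a median of -0.72. Of 11 TGF-beta genes 4 were lower, among them the ligand genes Tgfb2 (-3.08) and Tgfb3 (-2.49) and the receptor gene Tgfbr2 (-2.85), with a median of -0.23. Of 6 further cadherins kept, Cdh11 (-4.05), Cdh2 (-1.78) and Cdh13 (-1.25) were lower, with a median of -0.84. Cdh2 and Cdh11 are also among the mesenchymal effectors.

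Of 31 genes of epithelial junctions kept, 4 were higher than in ESC XX and 1 was lower, with a median of 0.32. Dsp, which encodes the desmosomal protein desmoplakin, was at 28.3, 9.53 and 19.0 TPM in A129-2, AOS-14 and AOS-16 and at 4.31 and 4.77 TPM in ESC XX, a difference of 1.83. The polarity gene Inadl (1.67) and St14 (1.12) were among the others, and the adaptor gene Ap1m2 was lower. Grhl2, a grainyhead factor of epithelia, was the 1 regulator of 9 that was higher, with 1.76, and the median of that list was 0.04. None of 10 other claudins kept passed the bound, with a median of 0.40, so that Cldn7 was the only claudin counted as higher by this rule. Under the bound, every line lay above both ESC XX libraries for Cldn4 (0.51) and Cldn14 (0.72) as well. Every line lay below both for Cldn9 (-0.51) and Cldn15 (-0.75).

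The 3 lines differed among themselves in most of the members. The ratio of the highest to the lowest line was 4.33 for Cdh1, 3.77 for Zeb2, 3.21 for Snai2, 3.08 for Twist1, 2.96 for Epcam, 2.83 for Cldn6, 2.66 for Vim and 2.26 for Cldn7. It was 1.63 for Snai1 and 1.04 for Zeb1. Over the 7883 genes averaging 10 TPM or more in the lines, the median ratio was 1.55 and the 90th percentile 2.88, so Cdh1 and Epcam lay past that percentile. Zeb2 and Snai2 were below 1 TPM in every line, where the ratio is least precise.

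AOS-14 was the lowest line in all 4 epithelial genes and in Vim. Against AOS-16 it differed by -1.53 for Epcam, -1.12 for Cldn6, -1.09 for Cldn7, -0.90 for Cdh1 and -0.79 for Vim on the log2(TPM + 1) scale. AOS-14 was below AOS-16 for 5914 of the 7883 genes, with a median of -0.23, and for 9 of 10 housekeeping genes, with a median of -0.41, so lower values in AOS-14 were common. In AOS-14, genes under 200 nt held 12.7% of the summed FPKM, against 0.111% in A129-2 and 0.00983% in AOS-16, and the part of this in the levels was not tested.

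Cdh1 was the member with the largest excess in A129-2, at 1.65 over the mean of the AOS lines in log2(TPM + 1). Cdh1 lies on chromosome 8, where the 475 genes averaging 10 TPM or more had a median excess of 1.11, against 0.17 for 7052 genes of the other autosomes. The excess was above 0 for 93.7% of the chromosome 8 genes and for 65.9% of the others. Cdh1 lay above 87.8% of the chromosome 8 genes and 99.1% of the others. Relative to the other autosomes, Cdh1 was 1.48 higher and chromosome 8 as a whole 0.93 higher, and the values were 1.80 and 0.92 against AOS-14 alone and 1.15 and 0.94 against AOS-16 alone. Cdh1's own difference and that of its chromosome cannot be told apart with 1 library per line.

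Of 18 other chromosome 8 genes in the lists, expressed or not, 10 were higher in A129-2 and 8 were lower, with a median of 0.13 and a range of -2.37 to 3.09. Only Zfp42 (3.09) and Col4a1 averaged 10 TPM or more, so this median is not on the footing of that of the 475 genes. Among the 18, Cdh3, which encodes P-cadherin, stood at 14.8, 3.24 and 7.10 TPM in A129-2, AOS-14 and AOS-16. The splicing regulator Esrp2 stood at 5.92, 1.42 and 2.26 TPM, and both genes were chosen after their values were seen. Their excess in A129-2 was 1.43 and 1.30, while Cdh11 (-0.80), Col4a1 (-0.77), Mmp2 (-0.39) and Foxc2 (-0.38) were lower there. Of the members on other chromosomes, Vim (1.01), Cldn6 (0.77) and, below 1 TPM, Zeb2 (0.29) were highest in A129-2. Cldn7 (0.41), Zeb1 (-0.03) and Epcam (-0.09) were not highest there, and Snai2 (-0.33), Snai1 (-0.55) and Twist1 (-0.77) were lower there.

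**Figure D5:**
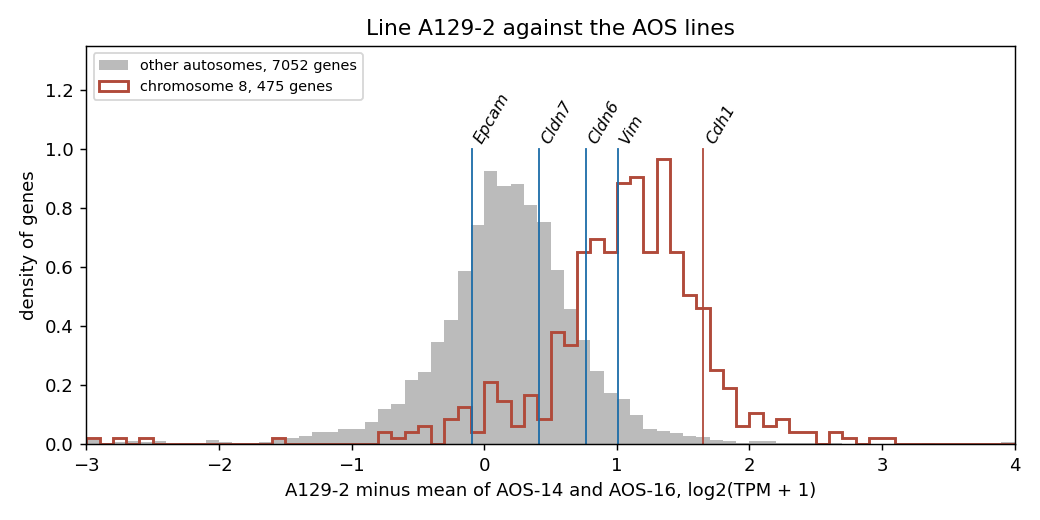
Density of genes by their difference between A129-2 and the mean of the AOS lines, in log2(TPM + 1), for 475 genes of chromosome 8 (outline) and 7052 genes of other autosomes (filled), with vertical lines at 5 of the members. Chromosome 8 is centred near 1.11 and the other autosomes near 0.17, and Cdh1 lies at 1.65, in the upper tail of both.

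Genes whose levels ran closest to a member were found by Pearson's r of log2(TPM + 1) over the 6 libraries, among 13525 genes that reached 5 TPM in at least 1 library. With 6 points, of which 1 is a different cell type and 2 have separate tables, these values only describe the libraries. Closest to Cdh1 were Zdhhc16 (r = 0.9999), Klf8 and Fgfr1, and Fgfr1 stood at 129.2, 34.2 and 60.8 TPM in A129-2, AOS-14 and AOS-16, 0.169 TPM in round sperm and 63.4 and 64.3 TPM in ESC XX. Closest to Epcam were Thyn1 (r = 0.995), Zc3h7a and Cflar, to Cldn6 were H6pd, Anxa2 and Atp6v0a1, and to Cldn7 were Sra1 (r = 0.998), Nudt11 and Stac2. Vim ran closest to Reep3, Lipa and Nin, and Snai1 to Bace1, Dclre1c and Clic4. Zeb1 ran closest to Igfbp3, Bmp4 and Sf3a2, Twist1 to Hscb, Man1c1 and Acvr1b, and Snai2 to Lrrc17 (r = 0.999), Vgll3 and Eef1a1, the last of which was listed at 0 in all 3 lines. Zeb2 did not reach 5 TPM in any library and was not entered.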

How the data were processed

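RNA sequencing values of 6 mouse libraries were used as deposited. Per the submitters' processing notes, TopHat2 2.0.13, Cuffdiff 2.2.1 and the build mm9 were used. Not given in the sources used here are the annotation, whether strand was used, and how libraries were scaled. Values deposited by the authors are taken as FPKM, as the tables of the ESC XX pair are named. For the table shared by the AG-haESCs and round sperm the unit was taken from the tool and the values. All tables list the same 23889 symbols.

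Depth was estimated from the steps of low FPKM in 2282 genes of 1 transcript and at least 1500 nt, and is approximate. AG-haESCs and round sperm were compared on log2(FPKM + 1) with limma 3.58.1 (trend) in R 4.3.3, two-sided, for genes of at least 1 FPKM in at least 1 of 4 libraries. The script was tested on simulated data. AG-haESCs and ESC XX were compared on log2(TPM + 1) without a test. The log2(value + 1) scale understates changes of low genes. Alternatives were a pseudocount of 0.1, other filters and scalings, and leaving out each AG-haESC and ESC XX library.

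The 10 genes and the pathway and marker lists were chosen with earlier results of these data known. Named besides the 10 genes and 4 label checks were the called genes of a pathway list with the 3 highest and 3 lowest differences, those past the bounds against ESC XX (at most 3 each way), and the 3 genes of highest r to each member. Genes that overlap a member, further claudins, further chromosome 8 genes and single markers were named after their values were seen.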

Additional observations from a re-analysis of the deposited data

How the results depend on the processing

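Against round sperm, 4 of the 9 genes tested were higher in the main setting. The count was between 2 and 4 with each line left out in turn, the lowest without AOS-16. It was 5 or 6 in every other alternative but no filter, which gave 4. Calls over all genes moved the same way, with 3632 of 15938 higher in the main setting and 2637 of 15757 without AOS-16. They were 4216 of 12020 with FPKM 1 in at least 2 libraries and 5108 of 15755 without genes under 200 nt. Snai2 remained lower wherever it was tested, and 0 genes were lower where an FPKM of 1 in at least 2 libraries was asked, a filter it did not pass. Of the junction genes, 12 were higher, 7 to 9 with a line left out, 10 with no filter and 15 to 18 in the other alternatives, and the 2 lower became 1 under a pseudocount of 0.1, equal totals, quantile normalization and removal of genes under 200 nt, 0 with FPKM 1 in at least 2 libraries, and 1 to 2 with a line left out. The 1 lower claudin became 0 at equal totals and without genes under 200 nt. The 2 lower mesenchymal effectors became 1 under a pseudocount of 0.1, no filter, equal totals, quantile normalization, removal of genes under 200 nt and each line left out. With a line left out, Epcam ranged from -0.22, without AOS-16, to 0.36. At equal totals Epcam left that range, as round sperm, at 22.0 TPM, lay below all 3 lines. These stood at 49.4, 30.6 and 90.6 TPM in A129-2, AOS-14 and AOS-16. Zeb1 reversed to 0.62 at equal totals, 0.12 under quantile normalization and 0.61 without genes under 200 nt. The causes were not tested. Against ESC XX, Cldn7 stayed higher and Vim, Zeb2 and Snai2 lower in every alternative run, with Zeb1 added by a bound of 1.5-fold and Twist1 without AOS-16. No paired analysis was possible because the AG-haESC and round sperm labels carry no replicate numbers and round sperm has 1 library. Depth limits Snai2, which rests on about 2 to 19 fragments in the lines.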
